A study of Mus musculus with 36 samples.

Results

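Broad H3K4me3 domains are stretches of several kilobases over which histone H3 carries trimethylated lysine 4 without a break. Here they were the peaks of the H3K4me3 list of serum-grown mouse embryonic stem cells that were wider than 4000 bp, on chromosomes 1 to 19 and X. Of 19284 serum H3K4me3 peaks on these chromosomes, 589 met this rule (3.05%), and they held 2.94 Mb, or 8.97% of the length under all of them. The domains were selected on their measured serum width, so their serum width and serum fold enrichment are given as a description. What the other lists held at the same places is described below.

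The study followed embryonic stem cells by ChIP-seq as they were moved from serum to 2i, a serum-free medium with inhibitors of the kinases MEK and GSK3 that holds them in the naive state of pluripotency. KH2 cells, an established mouse line, had 3 H3K4me3 lists in the order serum with LIF, 24 h in 2i with LIF, and 3 passages in 2i, with 2 samples each in the labels. For Nanog, antibody lot 1 (20100713) gave lists for serum, 24 h and 3 passages with 2 samples each, and lot 2 (C01MG07) gave lists with 1 sample each for TKO cells at 24 h, KH2 cells at 24 h and KH2 cells labelled GFP-high in serum. Sox2 had lists for serum and 24 h with 2 samples each and for 3 passages with 1, and Oct4 had lists for 24 h and serum with 1 sample each. TKO cells are a triple knockout of the DNA methyltransferases. The GFP reporter is not described in the labels. Serum cultures were kept on irradiated CF1 mouse embryonic fibroblasts, and what share of the chromatin came from these feeder cells is unknown.

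H3K4me3 is laid down by methyltransferases of the SET1 and MLL families and marks the promoters of transcribed genes. In embryonic stem cells it also lies, together with H3K27me3, over the promoters of many silent developmental regulators. Wide domains have been described at genes that set the identity of a cell. Oct4 and Sox2 are transcription factors that bind DNA side by side, and Nanog is a homeodomain factor that shares many of their sites. All 3 sustain pluripotency.

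Each condition had 1 list of peaks, so no value had a replicate, no difference between conditions was tested, and the intervals below are exact binomial 95% intervals (Clopper-Pearson) that cover counting error only. Domains are regions of the same libraries and not replicates. The fold enrichment of a peak is the authors' value over their control, and read depth was unknown because the lists hold no counts. The main shares are set beside those of the 5313 serum peaks over 2000 and up to 4000 bp, the next narrower class, and those of all 19284 serum peaks, which include the domains. No gene was assigned to a domain, because the positions are of the build mm9 and the annotation at hand is of another build.

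The domains were between 4001 and 10895 bp wide, with a median of 4714 bp and quartiles of 4277 and 5354 bp. Of the 589, 227 were no wider than 4500 bp, 76 were wider than 6000 bp and 12 were wider than 8000 bp. Their serum fold enrichment lay between 6.87 and 51.6 with a median of 25.3, beside a median of 12.6 over the whole serum list. The narrowest members were chr4:127004623-127008623 with 4001 bp and a fold of 19.8, chr17:6984542-6988543 with 4002 bp and a fold of 12.4, and chr4:28739396-28743398 with 4003 bp and a fold of 16.5. Just outside stood chr15:96470377-96474376 with 4000 bp and a fold of 18.7, chr17:13183050-13187048 with 3999 bp and a fold of 25.8, and chr14:99443243-99447241 with 3999 bp and a fold of 22.5. The limit of 4000 bp thus cuts a continuous range of widths. All 20 chromosomes held domains, from 2.20% of the serum peaks of chromosome 2 (33 domains, 1.52 to 3.07%) to 4.11% of those of X (23 domains, 2.63 to 6.11%).

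Nearly every broad domain still held H3K4me3 peaks in 2i. At 24 h, 588 of the 589 domains had a peak (99.8%, 99.1 to 100%), against 97.8% of the narrower class and 73.7% of all serum peaks. At 3 passages 583 domains had one (99.0%, 97.8 to 99.6%), against 97.7% of the narrower class and 76.3% of all serum peaks. The peaks covered 79.7% of the domains' length at 24 h and 85.1% at 3 passages. Those shares were 78.4% and 83.7% in the narrower class, and 66.3% and 72.9% over all serum peaks.

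The covered share varied from domain to domain. The median domain was covered over 83.7% of its length at 24 h (quartiles 72.8 and 90.6%) and over 90.8% at 3 passages (quartiles 81.5 and 97.1%). The narrower class had nearly the same medians, 83.6% and 89.98%. Full coverage was found for 7 domains at 24 h (1.19%), against 3.07% of the narrower class and 2.53% of all serum peaks, and for 55 at 3 passages (9.34%), against 11.9% and 10.7%. Under 50% was covered in 26 domains at 24 h (4.41%), against 8.71% of the narrower class and 34.0% of all serum peaks, and in 34 domains at 3 passages (5.77%), against 6.89% and 28.4%.

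Most domains were covered over more of their length at 3 passages than at 24 h. This order was not particular to domains. The length covered was 78.4% at 24 h and 83.7% at 3 passages in the narrower class. Over all serum peaks it was 66.3% and 72.9%. The counts that follow were made for the domains only. The share was higher at 3 passages in 438 domains, lower in 145 and equal in 6, with a median difference of 5.10 percentage points (3 passages minus 24 h, quartiles 0 and 11.8). It was higher at 3 passages by at least 20 points in 63 domains and lower by at least 20 points in 28. Both times covered at least 90% in 138 domains (23.4%), and both covered under 50% in 18. Across the 589 domains the shares at 24 h and 3 passages had a Spearman correlation of 0.55 and a Pearson correlation of 0.59, for points that share the serum width as denominator and the 2 libraries of each time. The width in serum was hardly related to the covered share, with Spearman correlations of -0.08 at 24 h and -0.02 at 3 passages.

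**Figure D1:**
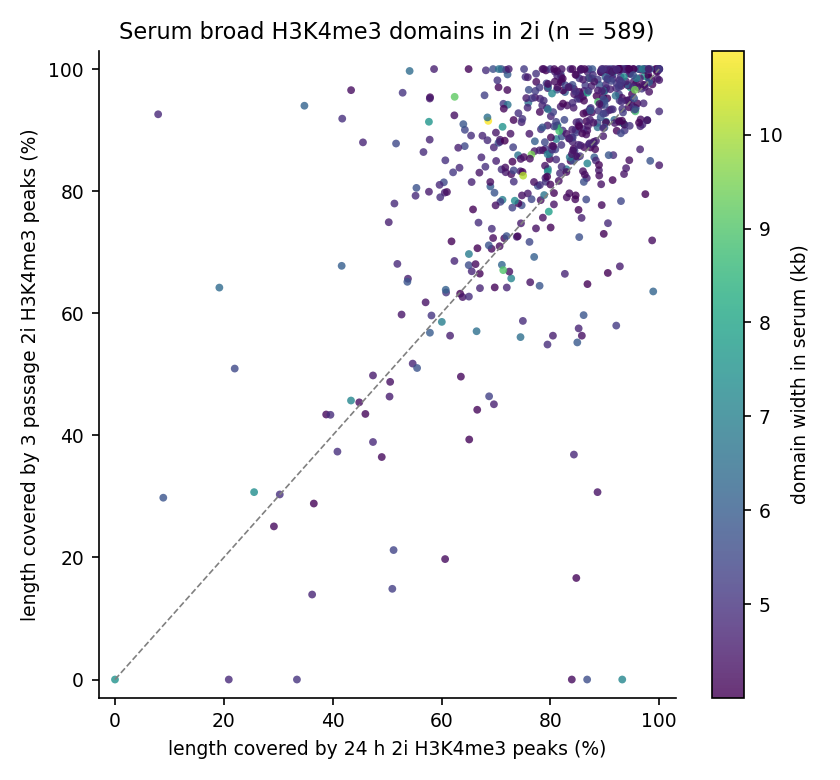
Share of the length of each of the 589 broad domains covered by H3K4me3 peaks at 24 h of 2i (x axis, percent) and at 3 passages of 2i (y axis, percent), coloured by width in serum (kb). Each point is 1 domain and the dashed line marks equal shares; 438 points lie above it, and the 6 on the lower edge had no peak at 3 passages.

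The domains were often called in pieces in 2i. At 24 h 304 domains were in 2 or more pieces (51.6%, 47.5 to 55.7%), against 21.1% of the narrower class and 9.45% of all serum peaks. At 3 passages 225 were (38.2%, 34.3 to 42.3%), against 14.9% of the narrower class and 6.73% of all serum peaks. Wider regions have more room for a break, so breaks were also counted per length. There were 0.131 breaks per kb of domain at 24 h and 0.0894 at 3 passages, against 0.0858 and 0.0584 in the narrower class. By number of pieces, 284 domains had 1, 232 had 2, 63 had 3 and 9 had 4 or 5 at 24 h, and at 3 passages 358 had 1, 190 had 2, 32 had 3 and 3 had 4. The 24 h and 3 passage lists had narrower peaks as a whole, with median widths of 1505 bp in serum, 1121 bp at 24 h and 1242 bp at 3 passages, and the part of this in the splits was not tested.

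The gaps between pieces were short. At 24 h the 386 gaps had a median of 162.5 bp, a minimum of 51 bp and a maximum of 2114 bp, and at 3 passages the 263 gaps had a median of 152 bp, a minimum of 51 bp and a maximum of 2339 bp. When pieces up to 1000 bp apart were joined in the 2i lists, 2.04% of the domains remained split at 24 h and 1.70% at 3 passages. In split domains the widest piece was set beside the others, which by this choice are no wider. The share of the mark in each piece was not measured. The widest piece had a median of 2782 bp and a fold of 16.1 at 24 h and 3058 bp and a fold of 22.4 at 3 passages. The other pieces had medians of 901.5 bp and 5.99 at 24 h and 1027 bp and 7.33 at 3 passages. The widest piece was also the strongest in 257 of 304 split domains at 24 h and in 196 of 225 at 3 passages.

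The same domains were not always split at both times. In 222 domains H3K4me3 was in 1 piece at 24 h and at 3 passages, and in 165 it was split at both. It was split at 24 h and in 1 piece at 3 passages in 136, and in 1 piece at 24 h and split at 3 passages in 60. These joint counts were not made for the other classes. The wider domains were split more often. Of the 118 widest, from 5621 to 10895 bp, 66.9% were split at 24 h and 53.4% at 3 passages. The 117 narrowest, from 4001 to 4222 bp, were split in 45.3% and 29.9% of cases at these times.

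The length without a 2i peak lay mostly at the ends of the domains. These ends are the borders of serum peaks chosen for their width, so a narrower 2i peak inside them leaves length at an end. The order of the parts below also follows the serum summit. The part of this choice in the values was not tested. Each domain was cut into 10 equal parts, with part 1 at the end nearer the serum H3K4me3 summit. At 24 h the mean covered share was 54.3% in part 1, 96.1% in part 4 and 40.5% in part 10, and at 3 passages it was 68.7%, 95.8% and 59.6% in those parts. The 2 outer parts together were covered over 47.4% of their length at 24 h and 64.2% at 3 passages, and the 2 middle parts over 93.8% at both times. In the narrower class the outer parts had 45.4% and 58.5% and the middle parts 92.1% and 93.6%, so this form was not limited to broad domains. Of the 0.598 Mb not covered at 24 h, 82.6% lay at the ends of domains, 16.2% in gaps and 1.26% in the domain without a peak. Of the 0.438 Mb not covered at 3 passages, 76.0% lay at the ends, 16.1% in gaps and 7.83% in the domains without a peak. Peaks fell short of both ends in 423 domains at 24 h and in 258 at 3 passages. This was not counted in the other classes. Peaks also reached beyond an end in 163 domains at 24 h, by 29.0 kb in all. They did so in 1799 of the 5313 regions of the narrower class and 4577 of all 19284 serum peaks. At 3 passages they did so in 323 domains, by 104.3 kb, against 2921 regions of the narrower class and 8333 of all serum peaks. Reaching beyond an end was thus not particular to broad domains.

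**Figure D2:**
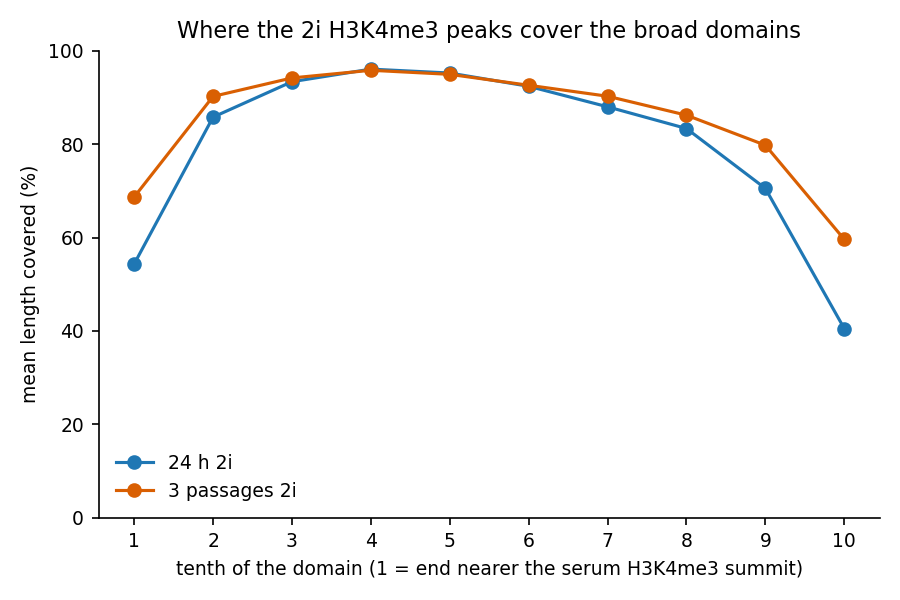
Mean share of length covered by H3K4me3 peaks at 24 h and at 3 passages of 2i (y axis, percent) in 10 equal parts of the 589 broad domains (x axis, part 1 at the end nearer the serum H3K4me3 summit). Coverage peaks in part 4, at 96.1% at 24 h and 95.8% at 3 passages, and is lowest in part 10, at 40.5% and 59.6%.

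The mark within the domains was strong in both 2i lists. The strongest piece in a domain had a median fold of 17.6 at 24 h, against 12.7 in the narrower class and 9.45 over all serum peaks. At 3 passages the median was 24.3, against 16.7 and 12.3. The median over single peaks, wherever they lay, was 8.16 in the 24 h list and 10.003 in the 3 passage list. Folds of different lists rest on different libraries, and where they are given side by side no change is read from them. The domain with the strongest piece at both times was chr3:75453561-75460723, with a fold of 48.0 at 24 h and 88.8 at 3 passages.

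A peak wider than 4000 bp was still called in 149 domains at 24 h (25.3%, 21.8 to 29.0%), against 0.320% of the narrower class and 0.887% of all serum peaks, and in 279 at 3 passages (47.4%, 43.3 to 51.5%), against 1.66% and 2.00%. With pieces up to 1000 bp apart joined in the 2i lists, these shares of domains were 55.5% at 24 h and 72.0% at 3 passages. The serum list was left as deposited, so these shares set joined 2i peaks against serum peaks that were not joined. They were not computed for the other classes. Without joining, a peak over 4000 bp was called in all 3 conditions in 127 domains. It was called in serum and at 24 h only in 22. It was called in serum and at 3 passages only in 152, and in serum only in 288. Its presence in serum follows from the choice of the domains, and these joint counts were not made for the other classes. The domains were chosen for their width in serum, which by itself favours narrower peaks in the other lists, so the rule was also turned round. The 24 h list held 165 peaks over 4000 bp, and 149 of them (90.3%) met a serum peak over 4000 bp. They were 7 times in 2 or more pieces in serum (4.24%), and their median covered share in serum was 100%. The 3 passage list held 365 such peaks, of which 279 (76.4%) met a serum peak over 4000 bp, with 6.30% in pieces and a median of 96.3% covered in serum. Of these 365, 138 (37.8%) met a peak over 4000 bp at 24 h and 142 (38.9%) were in pieces there. Wide 24 h peaks were in pieces at 3 passages in 13.3% of cases. Wide serum or 3 passage peaks were thus more often in pieces at 24 h than the other way round. The lists are not alike, however. The limit of 4000 bp took 3.05% of serum peaks, 0.946% of 24 h peaks and 1.93% of 3 passage peaks. Their lowest −log10 q was 10.5, 4.91 and 14.3. With a −log10 q of at least 10, 40.7% of the serum domains were in pieces at 24 h. The part of these list differences was not tested. The number of peaks over 4000 bp was 589 in serum, 165 at 24 h and 365 at 3 passages.

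To set width aside, the 589 widest peaks of each list were compared. They went down to 3199 bp at 24 h and to 3626 bp at 3 passages. Of the serum domains, 337 (57.2%) met 1 of the widest 24 h peaks and 354 (60.1%) met 1 of the widest 3 passage peaks. Of the narrower class 4.69% met 1 of them at 24 h and 4.37% at 3 passages, and of all serum peaks 3.11% and 3.19%. Of the domains, 276 (46.9%) met both and 174 (29.5%) met neither. This was not counted for the other classes.

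The widest domain, chr12:87808732-87819626, had 10895 bp and a fold of 39.1 in serum. At 24 h it was in 3 pieces that covered 68.6%, with folds of 23.9, 3.58 and 4.59, and at 3 passages 1 piece of 10571 bp and a fold of 44.3 covered 91.5%. The second widest, chr18:75525223-75535314, had 10092 bp and a fold of 15.2 in serum, 4 pieces over 7569 bp at 24 h and 1 piece over 8330 bp at 3 passages. The third, chr19:4803314-4812781, had 9468 bp and stayed in 4 pieces, over 76.5% at 24 h and 86.0% at 3 passages, of which the last and widest had folds of 25.7 and 31.5 and the others at most 8.30 and 9.07.

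The fourth widest, chr9:114465036-114474469, had 9434 bp and was covered over 95.5% in 2 pieces at 24 h and 96.6% in 1 piece at 3 passages. The sixth, chrX:55280891-55289879, had 2 pieces at both times, over 71.3% at 24 h and 67.1% at 3 passages. Among the 50 widest, chr5:100464683-100471668 was covered over 97.0% at 24 h and 100% at 3 passages in 1 piece, and chr5:120119478-120126099 over 70.5% in 3 pieces at 24 h and 100% in 1 piece at 3 passages. The remaining 3 of the 5 best covered of these 50 had 98.7 to 99.5% covered at 3 passages.

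A small group of domains had no peak at 3 passages. Of these 6, chr19:5796158-5803666, with 7509 bp and a serum fold of 28.8, also had none at 24 h. The domain chr16:23106330-23113500, with 7171 bp, had the highest serum fold of all 589, 51.6. At 24 h 1 piece with a fold of 38.1 covered 93.2% of it, and the 3 passage list had nothing there. The authors numbered their calls in order of position, and the calls on either side of this domain in the 3 passage list are numbers 43170 and 43172, so 1 call between them was left out of the deposited list. For chr19:5796158-5803666 the missing numbers were 1 at 24 h and 2 at 3 passages. Whether these calls lay inside the domains cannot be read from the lists, so an empty domain here means that no deposited peak lay there.

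The other 4 domains without a 3 passage peak were chr2:154713767-154719370, chr2:174109158-174114161, chr14:47006275-47011066 and chr1:182864200-182868402, where 7, 12, 20 and 3 numbers were missing between the nearest peaks. At 24 h they were covered over 86.8%, 33.4%, 20.9% and 83.9% of their length. The last of them was named after its values were seen. The numbers run to 37751 for the 19309 peaks of the deposited serum H3K4me3 list, to 41613 for 17467 at 24 h and to 117835 for 18978 at 3 passages. Between the pieces of split domains, however, the numbers were consecutive for 373 of 386 gaps at 24 h (96.6%) and 251 of 263 at 3 passages (95.4%), so most gaps held no further call.

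**Figure D3:**
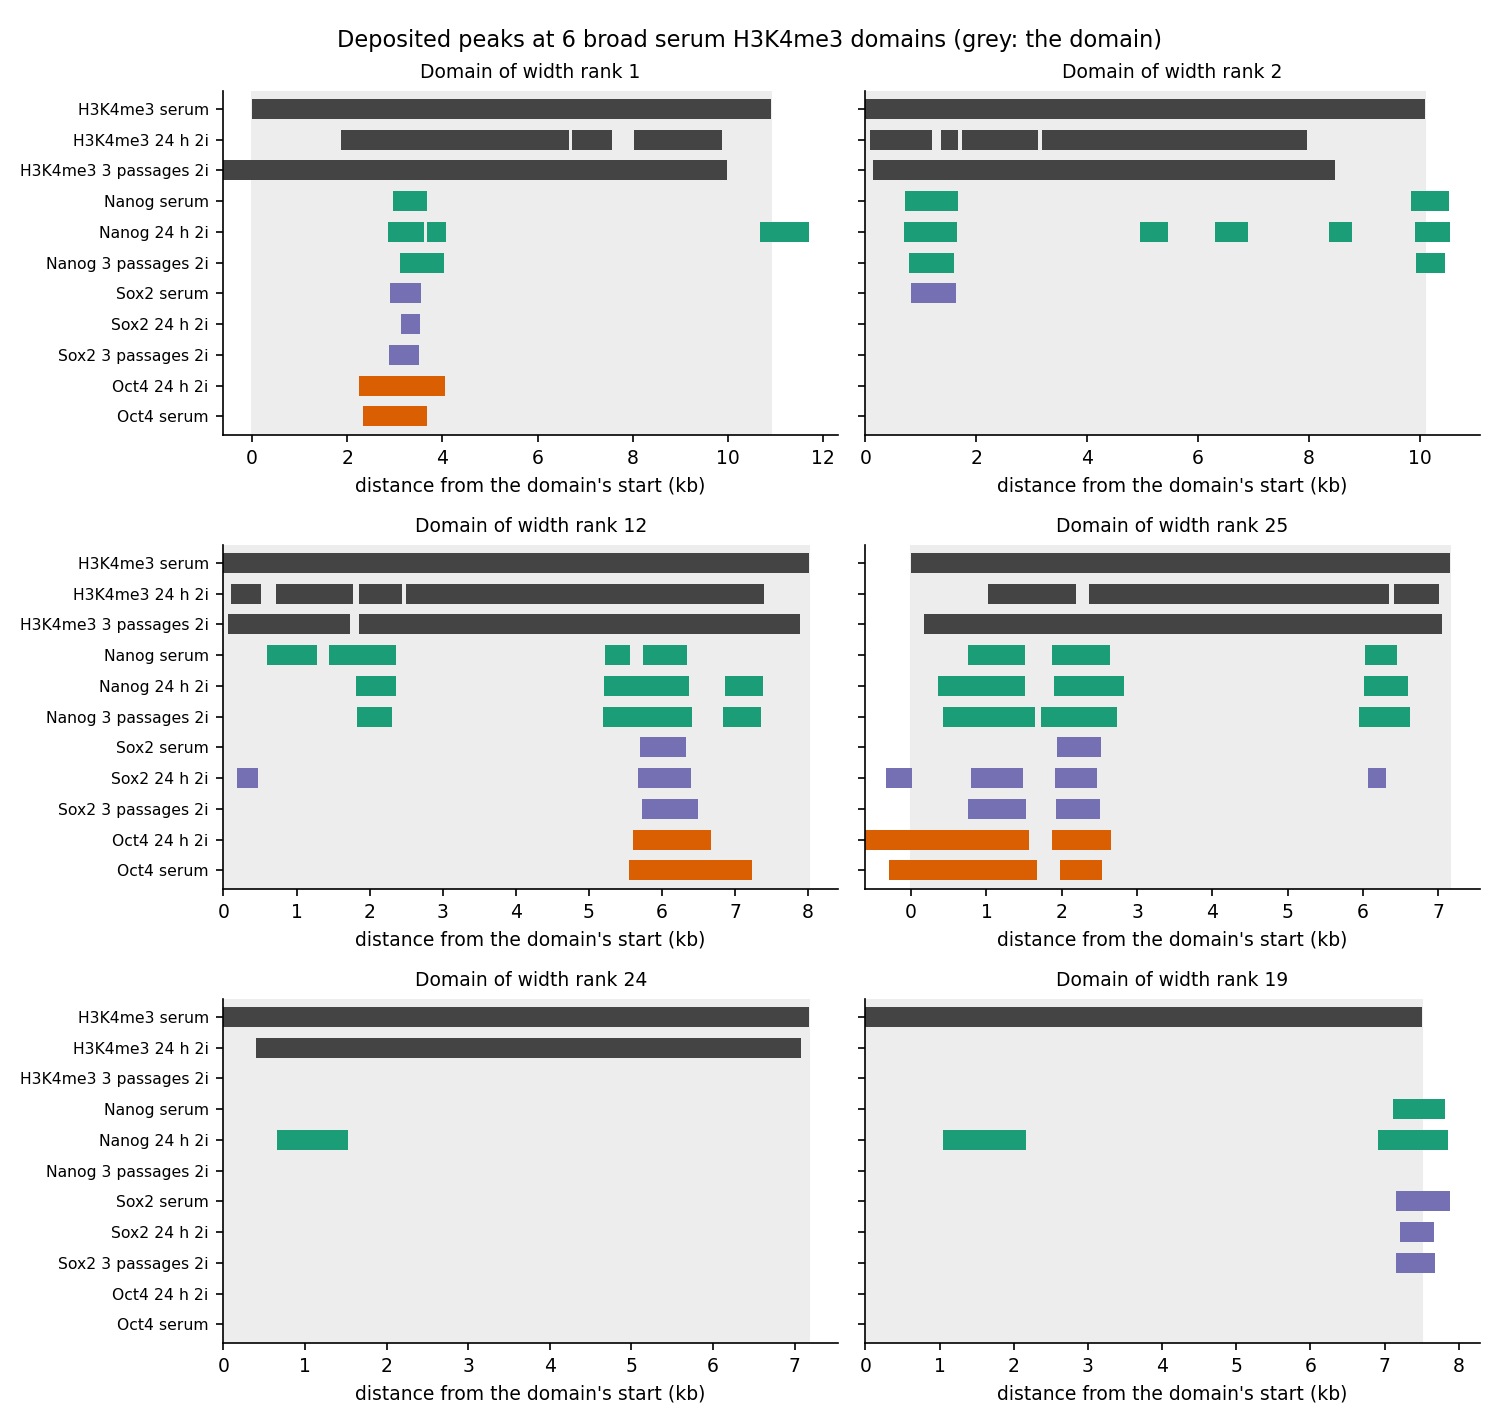
Deposited H3K4me3, Nanog (antibody lot 1), Sox2 and Oct4 peaks (bars, by list from top to bottom) at 6 broad domains, named by their rank in serum width, against the distance from the domain's start (x axis, kb); the grey field is the domain. Ranks 1 and 2 are split at 24 h and in 1 piece at 3 passages, ranks 12 and 25 carry peaks of all 3 factors, rank 24 has no H3K4me3 peak at 3 passages and rank 19 has none in 2i.

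Peaks of the pluripotency factors lay inside many broad domains. In each sentence that follows, the share of domains with a peak that overlapped by at least 1 bp is set against the narrower class and all serum peaks. With Nanog lot 1 in serum, 254 domains held a peak (43.1%, 39.1 to 47.2%), against 20.2% and 14.4%. At 24 h 370 did (62.8%, 58.8 to 66.7%), against 35.0% and 23.9%. At 3 passages 215 did (36.5%, 32.6 to 40.5%), against 16.6% and 12.3%. The 3 lists differ in length, with 25513, 41729 and 33184 peaks on these chromosomes. Cut to the 21893 peaks with the highest −log10 q each, the length of the shortest Nanog list, they gave 36.3% of domains in serum, 32.9% at 24 h and 25.3% at 3 passages. The share at 24 h was thus the highest of the 3 as deposited, and below the serum share at equal length.

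Lot 2 of the Nanog antibody gave other shares. In TKO cells at 24 h 314 domains held a Nanog peak (53.3%, 49.2 to 57.4%), against 31.1% of the narrower class and 20.8% of all serum peaks. In KH2 cells at 24 h 142 did (24.1%, 20.7 to 27.8%), against 8.28% and 6.32%. In GFP-high serum cells 200 did (34.0%, 30.1 to 37.9%), against 11.8% and 9.11%. At equal length these were 35.3% in TKO cells, 24.1% in KH2 cells and 30.4% in GFP-high serum cells. Each of these lists has 1 sample, and the H3K4me3 lists are of KH2 cells only, so the width of the mark in TKO cells was not measured.

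Sox2 peaks lay in 193 domains in serum (32.8%, 29.0 to 36.7%), against 12.2% of the narrower class and 9.33% of all serum peaks. At 24 h they lay in 132 (22.4%, 19.1 to 25.997%), against 6.83% and 5.56%, and at 3 passages in 94 (16.0%, 13.1 to 19.2%), against 4.40% and 3.74%. With the lists cut in the same way to 8749 peaks the shares were 21.6% in serum, 15.6% at 24 h and 16.0% at 3 passages. The serum share was the highest in both ways, and the 24 h share was no longer above the 3 passage share at equal length. With a −log10 q of at least 10 required, the shares were 32.8% in serum, 13.4% at 24 h and 11.7% at 3 passages. The lowest −log10 q was 17.3 in the serum list, 3.69 in the 24 h list and 7.52 in the 3 passage list.

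Oct4 peaks lay in 93 domains at 24 h (15.8%, 12.9 to 18.99%), against 4.48% of the narrower class and 3.63% of all serum peaks. In serum they lay in 88 (14.9%, 12.2 to 18.1%), against 4.03% and 3.28%. At an equal length of 5011 peaks the shares were 10.7% at 24 h and 14.9% in serum, so their order depended on the length of the lists.

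Longer regions have more room for a peak, so factor summits were also counted per kb. The part of length in the higher shares was not tested. In all 11 factor lists the domains held more summits per kb than the narrower class. The ratio, domains over narrower class, was 1.39 for Nanog lot 1 in serum, 1.18 at 24 h and 1.38 at 3 passages. It was 1.13 in TKO cells, 1.76 in KH2 cells at 24 h and 1.83 in GFP-high serum cells with lot 2. For Sox2 it was 1.71 in serum, 2.02 at 24 h and 2.27 at 3 passages, and for Oct4 1.98 at 24 h and 1.94 in serum. As deposited, Sox2 summits were rarest at 3 passages, 0.0285 per kb, where their ratio to the narrower class was the highest of the 3 Sox2 lists. That list was also the shortest of the 3, with 8749 peaks, and had 1 sample. Summits per kb were not recomputed at equal length. These ratios carry no replicate error and were not tested.

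**Figure D4:**
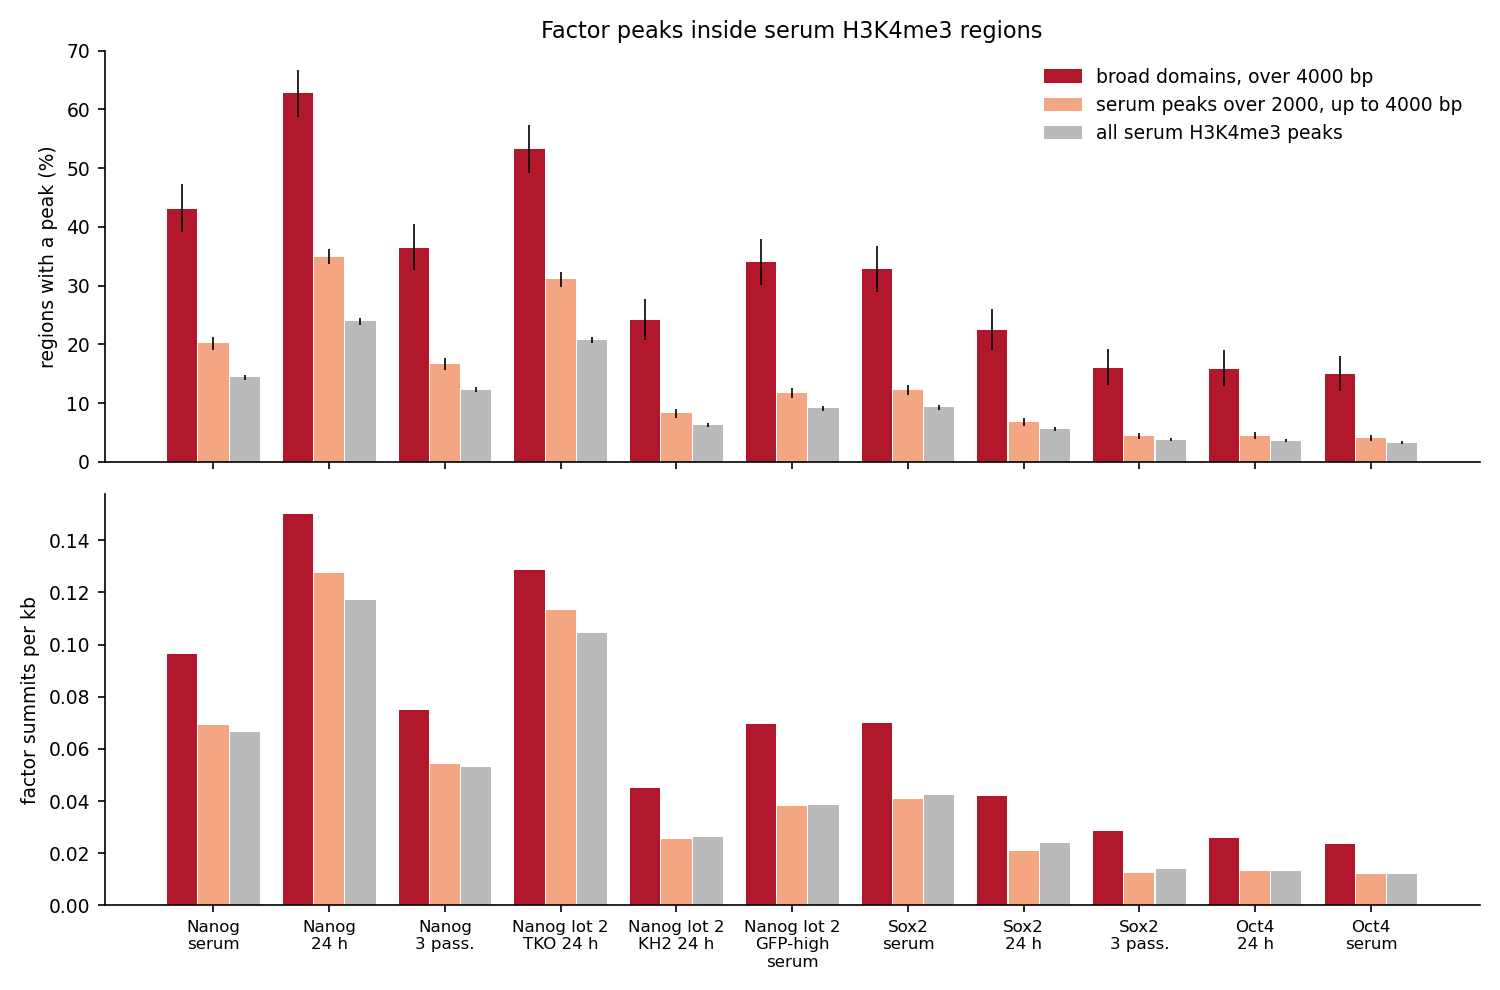
Top, share of regions with a factor peak inside (y axis, percent) with exact binomial 95% intervals; bottom, factor summits per kb of region (y axis). For each of the 11 lists the bars are the 589 broad domains, the 5313 serum peaks over 2000 and up to 4000 bp and all 19284 serum peaks; the domains have the tallest bar in every list, for example 43.1%, 20.2% and 14.4% for Nanog in serum.

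Only a small part of each factor's peaks lay in the domains. They held 1.27% of the Nanog peaks of lot 1 in serum, 1.20% at 24 h and 0.790% at 3 passages. For Sox2 the shares were 1.80% in serum, 1.00% at 24 h and 1.22% at 3 passages, and for Oct4 1.29% at 24 h and 1.82% in serum. In all 11 lists the peaks inside domains had a lower median fold than the whole list, and the same held for the peaks inside the narrower class and inside all serum peaks. For Nanog of lot 1 in serum the narrower class had 8.36 and all serum peaks 9.002, and at 24 h they had 7.08 and 7.46. Inside domains the Nanog median was 8.96 in serum, 7.76 at 24 h and 7.30 at 3 passages, against list medians of 12.1, 10.8 and 8.90. For Sox2 it was 7.77 in serum, 5.75 at 24 h and 5.83 at 3 passages, against 9.79, 5.94 and 6.65, and for Oct4 18.9 at 24 h and 16.7 in serum, against 20.1 and 18.4. Most domains with a peak held 1. For Nanog of lot 1 in serum this was 192 of 254 domains. In the narrower class it was 999 of 1073 regions with a peak, and over all serum peaks 2600 of 2772. With 3 or more Nanog peaks of lot 1 there were 6 domains in serum, 18 at 24 h and 5 at 3 passages. At these times there were 10, 15 and 4 of the 5313 regions of the narrower class. Of all 19284 serum peaks there were 16, 34 and 11.

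Presence of a factor was compared between lists. Nanog of lot 1 was called in serum, at 24 h and at 3 passages in 172 domains, at none of them in 200, at 24 h only in 93, in serum and at 24 h in 68, and in serum only in 13. Sox2 was called at all 3 times in 79 domains, in serum only in 69, in serum and at 24 h in 38 and at none in 378. Oct4 was called both at 24 h and in serum in 68 domains, at 24 h only in 25 and in serum only in 20. For Nanog at 24 h, both lots gave a peak in 137 domains, lot 1 alone in 233 and lot 2 alone in 5. With lot 2 at 24 h, TKO and KH2 cells both had a peak in 133 domains, TKO cells alone in 181 and KH2 cells alone in 9. Of the domains with Nanog of lot 1 in serum, 67.7% also had it at both 2i times, against 58.7% in the narrower class and 60.3% over all serum peaks. For Sox2 in serum this was 40.9%, against 28.5% and 31.9%. Oct4 of 24 h was also called in serum in 73.1%, against 64.3% and 66.6%. Lot 2 also had a peak in 37.0% of the domains with lot 1 at 24 h, against 21.4% and 23.9%, and KH2 cells in 42.4% of those with a TKO peak, against 23.3% and 26.1%. The KH2 list of lot 2 held 21893 peaks and the TKO list 38516, and the part of this in those counts was not tested.

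Peaks of all 3 factors were found in 71 domains at 24 h (12.1%, 9.54 to 14.96%), against 2.71% of the narrower class and 2.35% of all serum peaks. In serum they were found in 66 (11.2%, 8.77 to 14.03%), against 2.45% and 2.18%, and 56 domains had them in both conditions. In 42 domains (7.13%) every one of the 11 factor lists had a peak, against 1.37% of the narrower class and 1.18% of all serum peaks. At the other end, 141 domains (23.9%) had no peak of any of the 11 lists, against 49.1% and 64.7%. In serum, 146 of the 193 domains with Sox2 also held a Nanog peak (75.6%), against 61.1% in the narrower class and 65.5% over all serum peaks. With Oct4 it was 72 of 88 (81.8%), against 72.9% and 77.1%.

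Factor peaks and covered H3K4me3 length were set side by side. The 254 domains with a serum Nanog peak had a median of 81.8% covered at 24 h and 90.2% at 3 passages, against 84.4% and 91.3% for the 335 without. They were split in 56.7% of cases at 24 h and 37.4% at 3 passages, against 47.8% and 38.8%. They were also wider in serum, with a median of 4872 bp against 4616 bp. The 42 domains with all 11 lists had 80.6% covered and 69.0% split at 24 h, and 91.4% covered and 38.1% split at 3 passages, with a median width of 5494 bp. The 141 with none had 85.9% covered and 44.7% split at 24 h, and 91.5% covered and 36.2% split at 3 passages, with a median width of 4575 bp. The part of width in these splits was not tested.

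The share of factor summits on the parts covered in 2i was set against the share of length these parts made up. Of the 284 serum Nanog summits in domains, 78.5% (73.3 to 83.2%) lay on length covered at 24 h, which made up 78.7% of the length of those domains. At 3 passages it was 81.7% (76.7 to 86.0%) of the summits and 83.8% of the length. For Oct4 of 24 h, 81.6% (71.0 to 89.6%) of 76 summits lay on 24 h length, which made up 79.4%. Over the 22 pairs of a factor list and a 2i H3K4me3 list, the length share lay inside the interval of the summit share in 21. The summit share was the lower one in 16 of the 22, in 6 of 11 at 24 h and in 10 of 11 at 3 passages. The exception was Sox2 of 3 passages, of whose 84 summits 72.6% (61.8 to 81.8%) lay on length covered at 3 passages, against 82.8% of the length. The intervals treat summits within the same domain as independent. The pairs reuse the same 2i H3K4me3 lists, and the factor lists share many domains, so the 22 pairs are not separate observations. No conclusion is drawn from their number, and the other classes were not compared.

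The domain with the most Nanog peaks in serum was chr3:34546883-34554889, with 8007 bp, a serum H3K4me3 fold of 35.2 and 4 Nanog peaks of lot 1. It held 3 Nanog peaks at 24 h and 3 at 3 passages. The strongest peak of each of the 11 factor lists had its summit between 6059 and 6154 bp from the domain's start. The Oct4 peak there had a fold of 104.9 at 24 h and 84.4 in serum, and the Sox2 peak 38.9 in serum, 27.4 at 24 h and 25.1 at 3 passages. H3K4me3 covered 86.8% in 4 pieces at 24 h and 96.1% in 2 pieces at 3 passages, and its serum summit lay at 4001 bp, away from the factor summits.

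The domain chr3:75453561-75460723, with 7163 bp, was among the first 5 for Nanog, Sox2 and Oct4. Nanog had 3 peaks in each of the 3 lists of lot 1, with the strongest summit at 2243 bp in serum, 2245 bp at 24 h and 2240 bp at 3 passages and folds of 38.5, 30.4 and 48.4. Sox2 had 1 peak in serum, 4 at 24 h and 2 at 3 passages, and Oct4 had 2 at 24 h and 2 in serum. The Nanog fold was 40.1 in TKO cells at 24 h, 39.1 in KH2 cells at 24 h and 112.3 in GFP-high serum cells with lot 2. H3K4me3 was in 3 pieces over 80.3% at 24 h and in 1 piece over 96.0% at 3 passages.

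The most Sox2 peaks were held by chr12:12943153-12950103, with 3 in serum, 4 at 24 h and 2 at 3 passages, whose strongest folds were 18.6, 12.7 and 10.999. H3K4me3 stayed in 1 piece there, over 81.1% at 24 h and 88.5% at 3 passages. In chr2:51926385-51932005, which held 2 Sox2 peaks at each time, the Oct4 fold was 92.3 at 24 h and 59.2 in serum, and the Sox2 fold 40.9 in serum, 35.1 at 24 h and 25.6 at 3 passages. The domain chr14:22300177-22306002 had 2 Oct4 peaks in each list and Sox2 peaks numbering 2 in serum, 3 at 24 h and 2 at 3 passages. The domain chr5:28534299-28539148, also with 2 Oct4 peaks in each list, had H3K4me3 over 74.9% of its length at 24 h and 58.7% at 3 passages.

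In the widest domain, chr12:87808732-87819626, the strongest summits of all 11 factor lists lay between 3187 and 3357 bp from the start, on the part that kept H3K4me3 at 24 h. Its Nanog fold was 37.7 in serum, 24.5 at 24 h and 12.2 at 3 passages with lot 1. With lot 2 it was 21.2 in TKO cells at 24 h, 7.97 in KH2 cells at 24 h and 31.4 in GFP-high serum cells. The Sox2 fold was 16.9 in serum, 7.47 at 24 h and 4.40 at 3 passages, and the Oct4 fold 12.2 at 24 h and 16.0 in serum. The third widest, chr19:4803314-4812781, had Nanog folds of 43.0 in serum, 40.5 at 24 h and 23.3 at 3 passages with lot 1, on the piece that stayed strongest in H3K4me3.

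Among the domains without an H3K4me3 peak at 3 passages, most held factor peaks. In chr2:174109158-174114161, Nanog of lot 1 had folds of 23.6 in serum, 28.0 at 24 h and 13.8 at 3 passages, and Oct4 had 12.6 at 24 h and 12.7 in serum. In chr19:5796158-5803666, Sox2 had folds of 12.5 in serum, 5.82 at 24 h and 4.51 at 3 passages, with summits at 7444, 7446 and 7474 bp of its 7509 bp. In chr16:23106330-23113500 the factors had 3 peaks over all 11 lists, all of Nanog at 24 h, with folds of 10.1 in TKO cells and 6.10 in KH2 cells with lot 2 and 6.36 in KH2 cells with lot 1. The domain chr14:47006275-47011066 had no factor peak in any list.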

How the data were processed

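Peaks of Nanog, Sox2, Oct4 and H3K4me3 ChIP-seq in mouse embryonic stem cells were analysed from 14 deposited lists, for which the labels give 22 of the series' 36 samples. H3K27me3, input and RNA samples were not used here. Alignment tools BWA 0.5.7 and Bowtie 0.12.7, the peak caller MACS2 and the genome build mm9 are named in the submitters' processing notes. The sources used here do not give the aligner of each list or the rule by which calls were kept. The peak names speak of pooled replicates, although the labels give a single sample for 6 of these 14, and each condition has 1 list without values for single samples. Each deposited peak has the authors' fold enrichment, a ratio over a control, its summit, and a q-value that the authors gave as −log10 q. Read depth is unknown.

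A peak lay in a domain if it overlapped it by at least 1 bp. Pieces, covered length, position in 10 equal parts and summits per kb were computed with Python 3.11.15, numpy 2.4.6, pandas 2.3.3 and scipy 1.17.1 and drawn with matplotlib 3.10.9. The code was tested on simulated intervals. Lists of equal length kept the peaks with the highest −log10 q, down to the shortest list of that factor or mark. Named domains were the 10 widest, 5 without or with the least H3K4me3 at 3 passages, the 5 best covered at 3 passages among the 50 widest, the 5 with the most Nanog peaks in serum, the 5 with the most Sox2 and the 5 with the most Oct4 peaks over their lists, and the 3 peaks on either side of 4000 bp. The members and these rules were chosen with earlier results of these data known. Coordinates are 1-based in mm9. Only an annotation of GRCm38.p6 was at hand, so no gene and no sequence is given for a domain.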

Additional observations from a re-analysis of the deposited data

How the results depend on the processing

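No paired analysis was possible because each condition had 1 list with no value per replicate, and for the same reason no replicate could be left out. Of 117 recomputed shares of domains, 57 stayed inside the counting interval of the share as reported and 60 lay outside it. The length covered has no interval, and 10 of its 12 recomputed values differed from that reported. Some unchanged values could not have moved. A −log10 q of at least 10 removes nothing from a list whose lowest value is higher, such as H3K4me3 at 3 passages. Equal length leaves the shortest list of each factor or mark whole. The unchanged values of length covered were both of these kinds. The number that stayed inside is thus no measure of stability. At each of both width limits 17 of 19 values lay outside or differed. With domains over 3000 bp, and then over 5000 bp, the length covered was 80.05% and 78.7% at 24 h and 85.3% and 84.6% at 3 passages, domains in 2 or more pieces were 38.2% and 62.4% at 24 h and 27.9% and 48.5% at 3 passages, and those with a peak over 4000 bp were 9.17% and 42.1% at 24 h and 19.5% and 60.9% at 3 passages. With the same limits, over 3000 bp and then over 5000 bp, domains with a Nanog peak of lot 1 were 31.9% and 54.0% in serum, 49.9% and 70.3% at 24 h and 27.2% and 46.0% at 3 passages. With lot 2 they were 43.4% and 64.9% in TKO cells, 16.5% and 35.1% in KH2 cells at 24 h and 22.5% and 44.6% in GFP-high serum cells. With Sox2 they were 23.5% and 43.1% in serum, 15.0% and 32.2% at 24 h and 10.3% and 25.2% at 3 passages, and with Oct4 10.1% and 23.3% at 24 h and 9.28% and 22.8% in serum.

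Lists of equal length gave 84.6% of length covered at 3 passages. For Nanog they gave 36.3% in serum, 32.9% at 24 h and 25.3% at 3 passages with lot 1 and 35.3% in TKO cells, for Sox2 21.6% in serum and 15.6% at 24 h, and for Oct4 10.7% at 24 h. A −log10 q of at least 10 gave 99.0% of domains with a 24 h peak, 76.96% of length covered and 40.7% in pieces at 24 h, and 13.4% and 11.7% with Sox2 at 24 h and 3 passages. Joining pieces up to 1000 bp apart, in the 2i lists only, gave 82.6% of length covered at 24 h and 87.1% at 3 passages. At these times 2.04% and 1.70% of domains were then in pieces, and 55.5% and 72.0% had a peak over 4000 bp. Without X the length covered was 79.6% at 24 h and 85.0% at 3 passages. With 50% of the shorter region overlapped, Nanog in KH2 cells at 24 h with lot 2 gave 20.4%, Sox2 19.02% at 24 h and 12.7% at 3 passages, and Oct4 12.4% at 24 h and 11.5% in serum.

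Alternatives chosen after the data were seen were the 589 widest peaks of a list and a summit inside the domain. The widest peaks gave 57.2% at 24 h and 60.1% at 3 passages in place of peaks over 4000 bp. Summits gave 58.2% for Nanog at 24 h and 31.9% at 3 passages with lot 1, 20.03% in KH2 cells at 24 h and 29.7% in GFP-high serum cells with lot 2, 18.7% and 12.9% for Sox2 at 24 h and 3 passages, and 12.1% at 24 h and 11.2% in serum for Oct4. The cause of these differences was not tested. The share in pieces rests on gaps of mostly under 300 bp, and the factor shares rest on list lengths that follow no common threshold, which limits both to a description of these lists.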

Other observations

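Some broad domains lay next to each other. There were 11 neighbouring pairs within 10 kb and 42 within 50 kb. Such pairs were not counted in the other classes, so no clustering is read from them. The closest, chr10:62345977-62352612 and chr10:62352819-62357057, were 206 bp apart and were named after their values were seen. In the first, with 6636 bp, H3K4me3 covered 74.1% in 3 pieces at 24 h and 85.9% in 3 pieces at 3 passages. In the second, with 4239 bp, it covered 84.3% at 24 h and 87.0% at 3 passages, in 1 piece each. Nanog of lot 1 had folds of 28.3 in serum, 25.5 at 24 h and 19.8 at 3 passages in the second. In the first it had no peak in serum and folds of 7.88 at 24 h and 5.35 at 3 passages.

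The pair chr8:44381477-44386255 and chr8:44386916-44393521, 660 bp apart and likewise named after their values were seen, held a domain with one of the largest differences between the 2i times. In the first of them, which had a serum fold of 7.59 and no factor peak in any of the 11 lists, H3K4me3 covered 7.93% at 24 h and 92.6% at 3 passages. In the second, with a serum fold of 24.2, it covered 72.2% at 24 h and 94.2% at 3 passages, and Nanog of lot 1 had folds of 18.7 in serum, 20.6 at 24 h and 14.1 at 3 passages. A further serum H3K4me3 peak lay within 5 kb of 28.2% of the broad domains, against 20.9% of the serum peaks over 2000 and up to 4000 bp and 28.0% of all serum peaks.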
